A study of Mus musculus with 10 samples.

Results

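The cytosolic ribosomal protein genes were taken from 4 gene expression tables of the mouse male germline as every row whose symbol has the form of a large-subunit (Rpl, Rplp) or small-subunit (Rps, Rpsa) protein, without pseudogenes and without the ribosomal S6 kinases. The rule found 83 genes among 36806 rows, 50 of the large and 33 of the small subunit. Of these, 79 lie on autosomes and 4 on the X chromosome (Rpl10, Rpl39, Rps4x and Rpl36a). They include the autosomal copies Rpl10l and Rpl39l.

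The cytosolic ribosome is built from ribosomal RNAs and a fixed set of proteins that cells make in near-equal amounts, so these genes are among the most highly transcribed in growing cells. Their mRNAs start with a run of pyrimidines, the terminal oligopyrimidine (TOP) tract, through which mTOR signalling sets their translation. In male meiosis the X chromosome is silenced from pachytene on, and several X-linked ribosomal protein genes have autosomal copies that are expressed in the germline, of which Rpl10l is known to be needed for male meiosis in mice.

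The libraries came from Ago4+/+ and Ago4-/- littermates on a C57BL/6 background. Ago4 codes for an Argonaute protein, which binds small RNAs, and the -/- animals carry no intact copy of it. Messenger RNA came from spermatocytes of 70-day-old males, labelled pachytene or leptotene/zygotene, and from whole testis taken at 3 or 8 days of age, with each genotype sequenced as 1 library per material. A further 2 libraries of pachytene small RNA were not analysed here. Each of the 4 tables, named for day 3, pre-meiotic, leptotene/zygotene and pachytene material, holds 2 conditions known only as the first and the second. Nothing in the sources used here says which condition is which genotype, so all folds below are second over first condition and carry no genotype. The pre-meiotic table is one of whole testis and was not tied to an age. Values are FPKM (fragments scaled to transcript length and to the number of mapped fragments), so levels can be compared between genes, and each is 1 library with no replicate.

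Ago4 itself, under its older symbol Eif2c4, stood at 0.897 and 1.23 FPKM in the first and second condition of day 3, 2.53 and 3.34 in the pre-meiotic table, 1.67 and 3.26 in leptotene/zygotene and 4.37 and 12.2 in pachytene, and was not used to name a condition. Marker genes were read before the results, as summed FPKM of each list. The libraries labelled leptotene/zygotene held 6 spermatid markers at 45707 and 53969, against 6910 and 8996 in pachytene and 61.3 to 65.2 in the pre-meiotic table. Prm2, which codes for a protamine that packs sperm DNA, alone reached 14183 and 18800 there. Their 8 leptotene and zygotene markers summed to 197 and 160, below the 372 and 332 of the pachytene libraries. Sycp3 (72.0 and 56.6 against 191 and 205) made up most of that difference, and Sycp1, Hormad1 and Msh4 were lower too. Prdm9 was higher (4.90 and 4.9 against 3.18 and 4.83), and the ranges of Dmc1, Mei1 and Rec8 overlapped. The spermatid markers and this sum thus go against the label, though not every listed gene does. The 8 pachytene markers found summed to 8399 and 8171 in the libraries labelled leptotene/zygotene. Their sums were 8990 and 8965 in pachytene and 53.4 and 47.3 in the pre-meiotic table. Single genes of this list went both ways between the spermatocyte materials, with Piwil1 higher and Pgk2 lower in pachytene. The 7 Sertoli cell markers found summed to 3317 and 3744 at day 3, 2624 and 2770 in the pre-meiotic table, 66.3 and 45.6 in leptotene/zygotene and 110 and 123 in pachytene. Both spermatocyte tables held more erythrocyte marker RNA in the second condition (39.6 and 336 in leptotene/zygotene, 6.47 and 17.2 in pachytene). Their macrophage marker sums were higher there as well (20.2 and 66.1, then 7.40 and 48.6). Most of that rise was in H2-Ab1 alone (6.905 and 41.5, then 3.35 and 43.5). Csf1r was lower in the second condition of both tables (0.699 and 0.647, then 0.396 and 0.189). How far the cells behind these markers bear on the results below was not tested. In bulk RNA, fewer cells of a type and less RNA per cell cannot be told apart.

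The sequence around the annotated start was read from RefSeq windows (build GRCm38.p6), which matched 62 of the 83 genes and held 74 starts. A pyrimidine tract was counted where a C is followed by at least 7 bases that are C or T on the gene's own strand, within 30 bases on either side of the start. It was present at 36 of the 74 starts (48.6%), against 18.2% of all 32851 starts. The ETS factor motif CCGGAAG was searched on both strands of the 300 bases from 250 before to 50 after the start. Its reverse complement begins with pyrimidines and can overlap a tract. It was found at 26 of the 74 starts (35.1%) against 8.86% of all. These are matches of letters and were not tied to binding.

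The starts of the genes on which the results turn are shown to set the X-linked genes beside their autosomal copies, with Rps18, whose own row differed most between conditions, and Rpl13a, the gene with the highest level at day 3. Each is the 30 bases on either side of the start, 5′ to 3′ on the gene's strand, and capitals mark every tract. The windows are chrX:74270786-74270845 (plus strand) for Rpl10, chrX:37085193-37085252 (minus) for Rpl39, chrX:102189362-102189421 (minus) for Rps4x, chrX:134585624-134585683 (plus) for Rpl36a, chr12:66284372-66284431 (minus) for Rpl10l, chr16:10170198-10170257 (plus) for Rpl39l, chr17:33955636-33955695 (minus) for Rps18 and chr7:45128716-45128775 (minus) for Rpl13a.
Rpl10: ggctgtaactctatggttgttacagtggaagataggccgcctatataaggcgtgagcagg
Rpl39: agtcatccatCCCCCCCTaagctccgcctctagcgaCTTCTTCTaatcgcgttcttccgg
Rps4x: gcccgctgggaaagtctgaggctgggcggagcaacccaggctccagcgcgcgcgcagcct
Rpl36a: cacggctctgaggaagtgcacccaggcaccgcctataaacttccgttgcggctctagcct
Rpl10l: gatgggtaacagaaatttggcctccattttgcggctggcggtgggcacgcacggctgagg
Rpl39l: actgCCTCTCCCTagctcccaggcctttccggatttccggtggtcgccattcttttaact
Rps18: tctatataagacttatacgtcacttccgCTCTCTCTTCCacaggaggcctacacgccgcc
Rpl13a: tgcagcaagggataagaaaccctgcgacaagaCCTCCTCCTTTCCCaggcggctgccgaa
The tract spans 14 bases in Rpl13a, 11 in Rps18 and 9 in Rpl39l, Rpl39 holds 2 tracts of 8 bases, and no run of that length stood within these windows in Rpl10, Rps4x, Rpl36a or Rpl10l. Of these, only the tract of Rps18 spans the annotated start. The tract of Rpl39l and the first of Rpl39 end before it, and those of Rpl13a and the second of Rpl39 begin after it. A counted tract is therefore not always at the start of the mRNA. The 300-base windows of Rpl39, Rpl39l and Rps18 hold the ETS motif.

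Ribosomal protein mRNA made up a larger share of the whole testis libraries than of the spermatocyte libraries. The members summed to 3.54% and 4.19% of all FPKM at day 3 and to 2.38% and 2.44% in the pre-meiotic table. In the libraries labelled leptotene/zygotene they held 0.571% and 0.562%, and in pachytene 0.778% and 0.993%. The median member stood at 291 and 437.4 FPKM at day 3, 133 and 126 in the pre-meiotic table, 34.4 and 31.0 in leptotene/zygotene and 38.3 and 48.3 in pachytene. By these rows alone, the ranges of the 4 materials did not overlap in share or in median. With the rows named as their pseudogenes added, the shares at day 3 (6.25% and 7.41%) and in the pre-meiotic table (6.11% and 6.31%) overlapped. The shares with those rows were 1.24% and 1.24% in leptotene/zygotene and 1.73% and 2.22% in pachytene. The 4 tables were normalised separately, so levels set across them are descriptions.

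**Figure D1:**
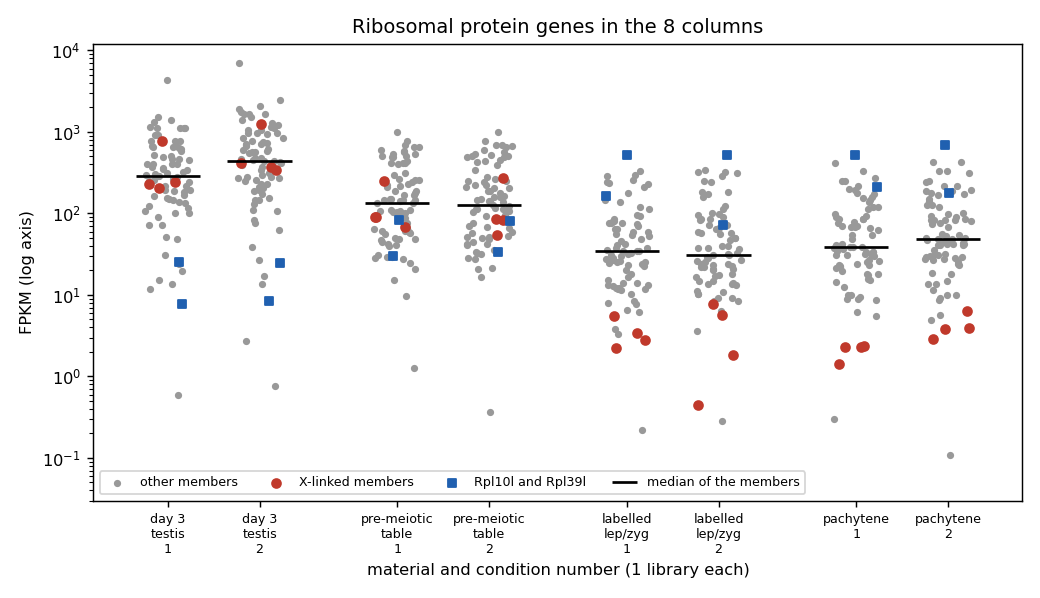
FPKM on a log axis of the 83 ribosomal protein genes in the first and second condition of each table, 1 point per gene and 1 library per column, with the median as a bar. The X-linked genes sit among the other members in both whole testis tables and among the lowest in the spermatocyte tables. Rpl39l is the highest point there, by own rows without pseudogene rows.

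Small-subunit genes stood above large-subunit genes in all 8 columns, with medians of 409 and 690.5 FPKM against 225 and 339 at day 3 and of 67.3 and 76.6 against 32.1 and 41.6 in pachytene. The highest levels over the 8 columns were those of Rps15a, Rplp0 and Rpl8. Rplp0, which anchors the acidic stalk of the large subunit that binds translation factors, was at 1138 and 1536 FPKM at day 3, 659 and 700.5 in the pre-meiotic table, 335 and 327 in leptotene/zygotene and 411 and 429 in pachytene. Its stalk partner Rplp1 was at 1124, 1672, 597, 699, 145, 182, 156 and 190.4 in the same order, and Rplp2 at 494, 757, 106, 115, 27.8, 17.5, 21.7 and 31.7. By its own row the level of Rplp2 was thus the lowest of the stalk proteins in every column. With pseudogene rows added it was the highest in whole testis, at 1537 and 2370 FPKM at day 3 and 1075 and 1057 in the pre-meiotic table, against 1248, 1679, 703 and 748 for Rplp0 and 1162, 1737, 598 and 702 for Rplp1.

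The lowest levels were those of Rpl3l, Rpl21 and Rps2. Rpl3l, the striated muscle form of the peptidyl transferase centre protein Rpl3, did not pass 1.25 FPKM in any column. Rpl21 lay between 3.80 and 24.5 FPKM, and Rps2 between 4.86 and 62.3. Reads can match pseudogenes of these genes: 59 of the 83 members have at least 1 row named as their pseudogene, 217 such rows in all, and 24 have none. The pseudogene rows together held 2.71% and 3.22% of FPKM at day 3 and 3.74% and 3.87% in the pre-meiotic table, more than the members themselves in the latter. A gene's own row can therefore be only a part of the signal of its family. Values are those of own rows unless a sum with pseudogene rows is named.

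The 4 X-linked genes followed the other members in whole testis and, by median, stood far below them in the spermatocyte libraries. Their median was 238 and 396 FPKM at day 3, against 291 and 445 for the autosomal members, and 90.7 and 85.0 in the pre-meiotic table against 142 and 139.7. In leptotene/zygotene it was 3.12 and 3.74 against 34.9 and 32.7, and in pachytene 2.30 and 3.88 against 38.9 and 49.3. The highest X-linked value in the spermatocyte tables was 7.67 FPKM, and the lowest in whole testis was 54.7, so these ranges did not overlap.

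Rpl10, which completes the large subunit at the peptidyl transferase centre, was at 230.5 and 339 FPKM at day 3, 91.3 and 86.2 in the pre-meiotic table, 5.54 and 5.65 in leptotene/zygotene and 2.39 and 3.94 in pachytene. Its copy Rpl10l on chromosome 12 ran the other way, with 7.67 and 8.48, then 29.9 and 34.1, then 162 and 72.4, then 213 and 177. The copy therefore held 3.22% and 2.44% of the pair's FPKM at day 3, 24.7% and 28.3% in the pre-meiotic table, 96.7% and 92.8% in leptotene/zygotene and 98.9% and 97.8% in pachytene. The 5 rows named as Rpl10 pseudogenes together went the way of Rpl10, from 863 and 1310 FPKM in sum at day 3 to 11.7 and 24.8 in pachytene. With them added to Rpl10, the ratio of Rpl10l to Rpl10 was 0.00701 and 0.00515 at day 3, 0.0419 and 0.0467 in the pre-meiotic table, 6.98 and 2.33 in leptotene/zygotene and 15.2 and 6.15 in pachytene, so the copy was a small part of the pre-meiotic sum.

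Rpl39, a small protein that lines the exit tunnel for the nascent chain, was at 207 and 371 FPKM at day 3, 90.04 and 83.8 in the pre-meiotic table, 2.79 and 1.83 in leptotene/zygotene and 1.41 and 3.81 in pachytene. Rpl39l on chromosome 16 was at 25.6 and 24.6, then 82.6 and 80.3, then 520 and 525, then 522 and 693. By own rows, Rpl39l was the highest of all 83 members in each of the 4 spermatocyte columns. With pseudogene rows added, Rps15a (843, 986.5, 985 and 1205 FPKM) and Rps24 (823, 959, 779 and 993) stood above it there. The 1 row named as an Rpl39 pseudogene held more FPKM than Rpl39 itself in every column, with 1896 and 3209 at day 3, 3355 and 3401 in the pre-meiotic table, 52.1 and 93.2 in leptotene/zygotene and 64.8 and 191 in pachytene. Over Rpl39 and that row together, the ratio of Rpl39l was 0.0122 and 0.00687 at day 3, 0.024 and 0.023 in the pre-meiotic table, 9.48 and 5.52 in leptotene/zygotene and 7.89 and 3.56 in pachytene.

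Rps4x, the small-subunit protein whose gene escapes X inactivation in women but not in mice, was at 772 and 1245 FPKM at day 3, 248 and 274 in the pre-meiotic table, 3.45 and 7.67 in leptotene/zygotene and 2.29 and 6.27 in pachytene. Its copy on chromosome 6, listed as Rps4y2 and now named Rps4l, stayed between 56.4 and 106 FPKM in all 8 columns. The copy thus went from 8.47% and 7.83% of the pair at day 3 to 97.5% and 93.0% in pachytene while its own level moved within a range below 2-fold, and the largest part of the shift lay in Rps4x.

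Rpl36a was at 246 and 420 FPKM at day 3, 67.3 and 54.7 in the pre-meiotic table, 2.24 and 0.447 in leptotene/zygotene and 2.32 and 2.84 in pachytene. Rpl36al, its copy on chromosome 12, which the symbol rule does not select, was at 168 and 260, then 187 and 169, then 108 and 91.6, then 143 and 159. The row named Rpl36a-ps3 held 84.0 and 81.3 FPKM in leptotene/zygotene and 130.5 and 148 in pachytene, near Rpl36al rather than Rpl36a. Added to Rpl36a with the other pseudogene rows, it brought the ratio of Rpl36al to 1.18 and 1.03 in leptotene/zygotene and 1.04 and 1.01 in pachytene, so the size of this shift depends on which gene that row's reads belong to.

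**Figure D2:**
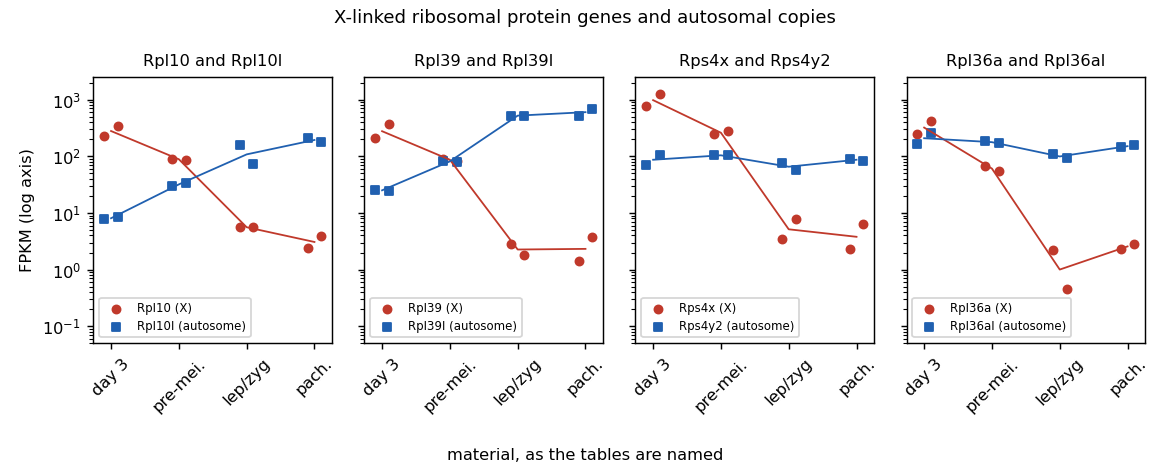
FPKM on a log axis of the 4 X-linked ribosomal protein genes (circles) and their autosomal copies (squares) in the 4 materials, with the first and second condition as the left and right point and lines through their geometric means. Rpl10l and Rpl39l are high where their X-linked relatives are low, whereas Rps4y2 and Rpl36al stay within a narrow band.

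The autosomal pairs did not share this pattern. Rpl22l1 was at 0.104 to 0.288 times Rpl22 in whole testis and at 0.386 to 0.659 times in spermatocyte libraries, without passing its parent. Rps27l, a p53 target, stood at 0.592 to 0.615 times Rps27 at day 3, at 2.72 to 3.17 times in the pre-meiotic table and at 1.56 to 2.47 times in spermatocyte libraries. Rpl7l1 remained at 0.0402 to 0.0733 times Rpl7, and Rpl3l at most at 0.0156 times Rpl3.

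Materials were compared gene by gene by asking whether both values of one material lay at least 2-fold beyond both values of the other. This uses the 2 libraries of a material as its spread, and they differ in genotype. From day 3 to the pre-meiotic table, 35 of 83 members were lower (42.2%), against 12.6% of all 19138 rows compared, and 4 were higher (4.82%) against 7.6%. The split depends on scaling: with every column set to an equal sum, 20 members were lower and 6 higher. With pseudogene rows added to each member, 21 were lower and 5 higher. The largest gap was that of Rps29, a zinc-binding small-subunit protein, at 612 and 975 FPKM at day 3 and 47.7 and 42.4 in the pre-meiotic table, so that the nearest values lay 12.8-fold apart. Rpl13a went from 4351 and 7098 FPKM to 490 and 508, with nearest values 8.56-fold apart. The 4 higher genes were Rpl10l, Rpl39l, Rpl7a (19.7 and 26.5, then 66.8 and 70.7) and Rpl17 (11.7 and 17.1, then 42.1 and 41.8).

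From the pre-meiotic table to the libraries labelled leptotene/zygotene, 60 members were lower (72.3%), against 48.1% of all 20339 rows, and 2 were higher (2.41%) against 23%. The 2 were Rpl10l, with nearest values 2.12-fold apart and so close to the limit, and Rpl39l, 6.29-fold apart. This split too depends on scaling: with every column set to an equal sum, 73 members were lower and 1 higher. The median member was 3.92-fold lower (log2 -1.97, against -1.34 for all rows). X-linked members had a median log2 difference of -5.29 and autosomal members of -1.93, and all 1214 X-linked rows compared had -2.18. The nearest values lay 31.9-fold apart for Rps4x, 29.1-fold for Rpl39, 23.4-fold for Rpl36a and 15.0-fold for Rpl10. With pseudogene rows added, the log2 gap of Rpl36a was -2.12 in place of -4.55, while those of Rpl39 and Rpl10 were -5.18 and -4.52. Rps4x has no row named as its pseudogene, so its gap of -5.00 could not change. By the mean log2 ratio, Rpl14 and Rpl10a were the autosomal members with a larger difference than Rpl10 (-4.42 and -3.99 against -3.96). Rpl14 was at 224.5 and 220.5 FPKM and then at 10.4 and 10.2.

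Other members kept a higher level. Rpl26, which is known to bind p53 mRNA, was at 257 and 247 FPKM in the pre-meiotic table and at 226.5 and 244 in leptotene/zygotene, so that its nearest values lay 1.02-fold apart. The ranges of Rps20 overlapped, with 294 and 284 FPKM and then 246 and 314. By contrast Rps3, which also takes part in DNA repair, went from 413 and 394.5 FPKM to 30.9 and 22.4. Rpl5 and Rpl11, which together bind the p53 regulator Mdm2, differed in size of change, with nearest values 7.48-fold apart for Rpl5 and 1.84-fold for Rpl11. Rps6, the target of S6 kinase, had nearest values 3.48-fold apart, and Rps19, the gene most often mutated in Diamond-Blackfan anaemia, 6.38-fold.

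Against the pre-meiotic table, pachytene gave the same picture with 53 members lower (63.9%), against 43.2% of all 20097 rows, and 2 higher (2.41%) against 23%. The 2 higher genes were again Rpl10l and Rpl39l, with nearest values 5.17-fold and 6.32-fold apart. No autosomal member had a mean log2 difference as low as that of any X-linked member, whose median was -4.88 against -1.45. This holds for own rows: with pseudogene rows added, the log2 gap between nearest values was -1.34 for Rpl36a. Autosomal members such as Rps3a (-2.58) and Rpl10a (-2.49) lay lower, whereas the gaps of Rpl10 and Rpl39 were -4.63 and -4.14. Rps4x (-5.28) and Rps3a have no row named as a pseudogene, so their gaps could not change. This comparison shares the pre-meiotic libraries with the one before it, so the 2 are not independent.

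Between the 2 spermatocyte materials, 4 of 82 members were higher in pachytene (4.88%) against 9.33% of all 17384 rows, and 0 were lower against 6.25%. The 4 were Rps27a, made as a fusion with ubiquitin (12.2 and 13.2 FPKM, then 36.6 and 49.8), Rpl14 (10.4 and 10.2, then 26.5 and 40.9), Rpl7l1 (3.32 and 3.57, then 8.68 and 10.02) and Rpl10a (8.32 and 7.80, then 17.5 and 23.9). Rpl10 lay lower in pachytene by its own row, with nearest values 1.40-fold apart, and its ranges overlapped with pseudogene rows added. The spermatid marker sums given above differ more between these materials than any member does.

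Within each table the second condition was set against the first, as log2 of the ratio after adding 0.1 FPKM. The calls are those of the authors' Cuffdiff test at an adjusted p (q) of at most 0.05. With 1 library per condition, this test compares 2 libraries, not 2 genotypes, and its error covers counting and modelling only. The error given beside a log2 fold is the one implied by the authors' test statistic.

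At day 3 nearly all members were higher in the second condition by a similar amount. The median log2 fold was 0.61, or 1.52-fold, with quartiles of 0.53 and 0.70, and 80 of 83 members lay above 0. A total of 71 had a log2 fold between 0.4 and 0.9. Over all 16277 rows with at least 1 FPKM in both conditions the median was 0.06, and 54.4% lay above 0. The sum of all FPKM also differed between the day 3 columns, and with each column set to an equal sum the members' median was 0.24. The authors' deposited table called 43 members higher (51.8%), against 4.8% of all 24020 rows tested, and 2 lower (2.41%) against 9.97%.

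The day 3 genes called higher came from both subunits. Among large-subunit proteins the authors' deposited table called Rpl10 (log2 fold 0.55, error 0.11, Cuffdiff adjusted p = 2.89e-05). The p53-linked Rpl11 (log2 fold 0.63) and Rpl5 (0.42) and Rpl13a (0.71), the gene of highest level at day 3, were called as well. Among small-subunit proteins it called Rps19 (log2 fold 0.77), Rps3 (0.52), Rps6 (0.55) and Rps14 (0.65), the gene lost in human 5q- syndrome. All 4 X-linked members were among the 43. Rps15a (log2 fold 0.56), Rplp0 (0.43) and Rpl8 (0.57), the genes of highest level over the 8 columns together, had folds of similar size and were not called. Only 4 of the 82 members with at least 1 FPKM were 2-fold apart (4.88%), namely Rps2, Rps18, Rpl29 and Rpl30, against 11.6% of all 17706 rows. The germline copy Rpl39l stood at 25.6 and 24.6 FPKM and Rpl10l at 7.67 and 8.48, with log2 folds of -0.06 and 0.14, outside the band of most members. Erythrocyte marker sums at day 3 were 1470 and 1797 and stromal ones 5306 and 3950, and their part in these folds was not tested.

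In the pre-meiotic table the members were level between conditions. The median log2 fold was -0.0041, with quartiles of -0.07 and 0.08, and 72 of 83 members lay within 0.2 of 0. Rpl29 was called higher, 1 of 83 members (1.2%) against 0.471% of all rows, and Rpl30 lower, again 1 (1.2%) against 0.68%. Past 2-fold were Rpl29 and Rpl3l, 2 of 83 (2.41%) against 8.7%, and Rpl3l stood at only 1.25 and 0.362 FPKM.

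In leptotene/zygotene the median log2 fold was 0.05, or -0.02 with columns set to an equal sum, and the middle of the distribution ran from -0.10 to 0.24. Rpl29 was called higher, 1 of 82 members (1.22%) against 0.804%, and Rpl10l and Rps18 lower, 2 (2.44%) against 1.33%. The log2 fold of Rpl10l was -1.16 (error 0.18, adjusted p = 2.58e-07 from Cuffdiff in the authors' deposited table), from 162 to 72.4 FPKM. Past 2-fold were 6 of 82 (7.32%) against 13.8%, namely Rpl29, Rpl21, Rps4x, Rpl10l, Rpl36a and Rps18. Rps4x and Rpl36a, at 3.45 and 7.67 and at 2.24 and 0.447 FPKM, went in opposite directions and were not called.

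In pachytene most members lay somewhat higher in the second condition. The median log2 fold was 0.31, or 1.24-fold, with quartiles of 0.17 and 0.44, and 77 of 83 lay above 0. All rows with at least 1 FPKM in both conditions had a median of 0.03, and 54.1% lay above 0. Rpl29 and Rpl30 were called higher, 2 of 83 (2.41%) against 0.614%, and Rps18 lower, 1 (1.2%) against 1.01%. Past 2-fold were 5 of 82 (6.1%) against 10.6%, and besides these 3 they were Rps4x (2.29 and 6.27 FPKM) and Rpl39 (1.41 and 3.81 FPKM). The X-linked members had a median log2 fold of 1.03 from these low levels, against 0.31 for autosomal ones, and none of the 4 was called. Macrophage and stromal marker sums were also higher in this second condition, as given above for macrophages (mostly through H2-Ab1) and with 3.07 and 11.0 for stroma.

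**Figure D3:**
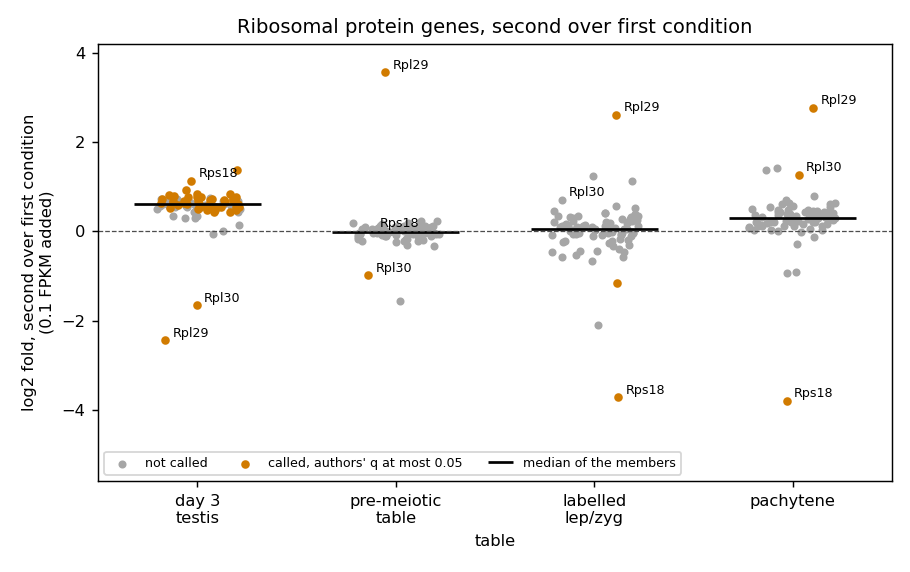
Log2 fold of the second over the first condition, with 0.1 FPKM added, for the 83 ribosomal protein genes in each table, with called genes in orange and the median as a bar. At day 3 the points form a narrow band around 0.61, and Rpl29, Rpl30 and Rps18 lie outside the band in most tables.

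The exceptions were Rpl29, Rps18 and Rpl30, and they behaved differently when their pseudogene rows were added. Rpl29 (ENSMUSG00000048758, chr9:106331784-106333899 as the table gives it, build not given in the sources used here) codes for a lysine-rich large-subunit protein that also binds heparin. Its level was 15.4 and 2.75 FPKM at day 3, 9.63 and 115 in the pre-meiotic table, 6.47 and 40.2 in leptotene/zygotene and 6.10 and 42.3 in pachytene. The second condition was the lower one at day 3 (log2 fold -2.44, error 0.36) and the higher one in the other 3 tables (3.56, error 0.30, then 2.61, error 0.40, and 2.77, error 0.35). The 4 rows named as its pseudogenes summed to at most 16.4 FPKM. With them added the log2 folds were -2.18, 2.48, 1.17 and 1.58, in the same directions. Rpl29 is thus the only member whose family sum differed by at least 2-fold in all 4 tables.

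Rps18 (ENSMUSG00000008668, chr17:34088947-34092608 as the table gives it) codes for a protein of the small-subunit head. Its own row was at 260 and 570 FPKM at day 3, 28.1 and 28.3 in the pre-meiotic table, 113 and 8.48 in leptotene/zygotene and 121 and 8.64 in pachytene, or log2 folds of 1.13, 0.01, -3.72 and -3.79. The row listed as Gm10260, now named Rps18-ps3, held 933 and 1084, then 899 and 915, then 119.5 and 281, then 136 and 279.5 FPKM, and was higher in the second condition in both spermatocyte tables, where Rps18 itself was lower. In the authors' deposited table it was called in both (Cuffdiff adjusted p = 4.01e-07 in leptotene/zygotene and 0.0174 in pachytene). Summed over Rps18 and its 3 pseudogene rows, the family stood at 256 and 305 FPKM in leptotene/zygotene and 284 and 306 in pachytene, or log2 folds of 0.25 and 0.11. The sum thus differed far less than the own row, and which locus the reads came from cannot be told apart in these tables.

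Rpl30 (ENSMUSG00000058600, chr15:34370259-34373395 as the table gives it), a large-subunit protein, was at 408 and 130 FPKM at day 3, 314 and 159 in the pre-meiotic table, 59.8 and 97.5 in leptotene/zygotene and 70.6 and 171 in pachytene. Its log2 folds were -1.65, -0.98, 0.70 and 1.27. The 9 pseudogene rows together ran against it at day 3, with 637 and 1261 FPKM, and in the pre-meiotic table, with 624 and 751. The family sums were 1045 and 1391, then 938 and 910, then 372 and 355, then 452 and 587 FPKM, or log2 folds of 0.41, -0.04, -0.07 and 0.38. The day 3 fold of the sum lay below the members' first quartile of 0.53, and those of the other tables lay between the members' quartiles.

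Rps2, at 23.8 and 62.3 FPKM at day 3, had the largest log2 fold above 0 there (1.39, error 0.15), and its locus holds 3 other rows and its family 7 pseudogene rows. With pseudogene rows added, the members past 2-fold at day 3 were Rpl29 alone. In pachytene they were Rpl10, Rpl29, Rpl39 and Rps4x, and in leptotene/zygotene Rpl10l, Rpl29 and Rps4x. Rpl10l and Rps4x have no row named as a pseudogene, so their folds could not change.

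**Figure D4:**
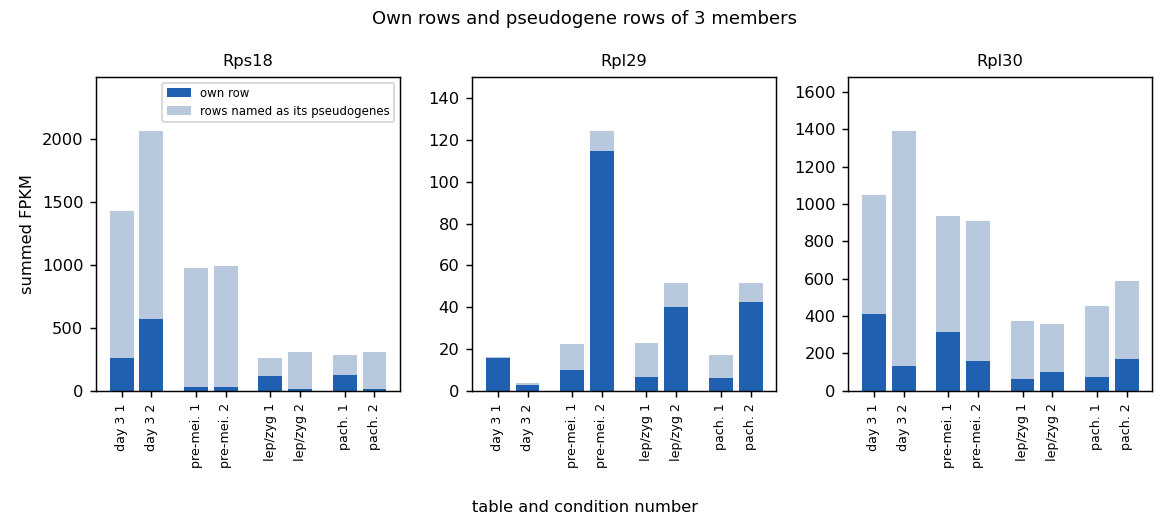
Summed FPKM of Rps18, Rpl29 and Rpl30 (dark) and of the rows named as their pseudogenes (light) in the first and second condition of each table, stacked from 0. As ratios, the totals of Rpl30 differ less between conditions than its dark parts in every table. Those of Rps18 do so at day 3 and in both spermatocyte tables, and its parts and totals are near level in the pre-meiotic table. For Rpl29 the own row carries the difference.

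The rest of the translation machinery was read from lists of other subunits, factors and assembly genes. Over all rows at day 3, 4.8% were called higher and 9.97% lower. Of the ribosomal proteins outside the symbol rule, Fau (which makes Rps30) was at 265 and 419 FPKM at day 3 and Gnb2l1 (Rack1, a scaffold on the small subunit) at 1599 and 2120. Neither these nor Rpl36al was called in any table, and their log2 folds at day 3 were 0.66, 0.41 and 0.63 in that order. Gnb2l1 was at 852 and 875 FPKM in the pre-meiotic table, 44.4 and 51.9 in leptotene/zygotene and 130 and 155 in pachytene.

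Of 80 mitochondrial ribosomal protein genes, 13 were called higher and 0 lower at day 3, with a median log2 fold of 0.42 against 0.02 for all rows tested. Elsewhere none of the 80 was called higher and 1 was called lower, in leptotene/zygotene, where 1.33% of all rows were called lower. Of 9 elongation factor genes, 3 were called higher at day 3 (Eef1b2, Eef1d and Eef1g, subunits of the exchange complex) and 0 lower. Of 35 ribosome assembly genes, 2 were called higher and 1 lower at day 3, with a median of 0.09, so their share called higher was near that of all rows. Of 30 initiation factor and other TOP genes tested at day 3, 4 were called higher and 2 lower, with a median of 0.18. Outside day 3, the calls on these 3 lists were Eef1d and Eef1g, higher in leptotene/zygotene, where 0.804% of all rows were called higher. In pachytene the nucleolar Ebna1bp2 and the intermediate filament gene Vim were called higher, against 0.614% of all rows. The cap-complex scaffold Eif4g1 was called lower there, against 1.01%. The log2 fold at day 3 was thus larger for the structural proteins of both ribosomes than for the assembly and initiation genes, a difference that was not tested.

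Between the pre-meiotic table and the libraries labelled leptotene/zygotene, 23 of 35 assembly genes were lower and 1 higher, and 40 of 80 mitochondrial ribosomal protein genes were lower and 4 higher, against the shares of 48.1% and 23% of all rows. From leptotene/zygotene to pachytene, 6 of 34 assembly genes and 10 of 80 mitochondrial ribosomal protein genes were higher and 0 of either were lower, against 9.33% and 6.25% of all rows. Among elongation factors, Eef1d went the other way from most members, with 218 and 218 FPKM in the pre-meiotic table, 833 and 1061 in leptotene/zygotene and 283 and 292 in pachytene.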

How the data were processed

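The members, gene lists and comparisons were chosen with earlier results of these data known. Per the submitters' processing notes, the authors' tools included Bowtie 0.12.7 with TopHat 1.3.0, then Cufflinks 1.1.0 with Cuffdiff, on a build not given in the sources used here. Per the file headers, the authors deposited FPKM for the first and second condition of each of 4 comparisons, a test statistic (a score from Cuffdiff) and p-values with q-values. Their deposited column of log2 folds was not used, since it holds stand-ins for infinite ratios. The TruSeq kit named in the labels' protocols is given with no strand-keeping step, so 42 members whose locus overlaps another row may share reads with it. Ribosomal protein pseudogenes are near-identical copies, and how reads that match several copies were placed is not stated in the notes or labels.

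Folds were log2((second + 0.1)/(first + 0.1)), computed in Python 3.11.15 with pandas 2.3.3 and numpy 2.4.6 and checked on simulated data. A fold was counted as past 2-fold for genes that reached 1 FPKM in at least 1 condition, and materials were compared after the same addition. The added 0.1 understates folds of low genes. The implied error is the size of the log2 ratio divided by that of the authors' statistic. No replicate exists in any group, the tables hold no read counts, and depth is unknown. The named genes are those the authors' q calls or that stand at the ends of the folds, levels and differences between materials, X-linked genes, copies and their relatives. Genes given as examples of a known function (such as Rps3, Rpl5, Rps6 and Rps19) were chosen after their values were seen. A further listed gene is not reported here. The Rpl24 row is left uncertain, since its identifier now belongs to another gene.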

Additional observations from a re-analysis of the deposited data

Results flagged for a closer look

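By the authors' calls, 3 members ran in opposite directions in different tables, a difference between tables that was not tested. Without calls in both directions, folds of other members also changed sign between tables. Nothing in the sources used here says that the second condition is the same genotype in all of them. For Rpl29 the log2 fold of second over first condition was -2.44 at day 3, against 3.56 in the pre-meiotic table, 2.61 in leptotene/zygotene and 2.77 in pachytene. For Rps18 it was 1.13 at day 3 against -3.72 in leptotene/zygotene and -3.79 in pachytene. For Rpl30 it was -1.65 at day 3 and -0.98 in the pre-meiotic table against 1.27 in pachytene. Of these, Rpl29 alone kept opposite directions past 2-fold when pseudogene rows were added.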

How the results depend on the processing

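Of the alternative values, 75 kept within the limit used for each kind of value (1.5 times for a count) and 26 did not. At that limit, 26 members in place of 39 were apart between day 3 and the pre-meiotic table with equal sums or with pseudogene rows added, and 4 in place of 6 were past 2-fold in leptotene/zygotene without Rpl29 and Rps18. Scaling moved the medians: the day 3 log2 fold was 0.55 with the median of all rows set to 0 and 0.24 with columns set to an equal sum, which also gave 0.035 in the pre-meiotic table and 0.38 in pachytene. The leptotene/zygotene median was -0.02 with equal sums, turning its sign, and 0.12 with the median of all rows set to 0. Without Rpl29 and Rps18, 2 members were past 2-fold at day 3, 1 in the pre-meiotic table and 3 in pachytene. Adding pseudogene rows left 1 past 2-fold at day 3 and 3 in leptotene/zygotene, and a pseudocount of 1 FPKM left 1 in the pre-meiotic table. A q of at most 0.01 left 24 of the 45 calls at day 3. Keeping only the 41 members whose locus overlaps no other row left fewer genes by construction: 24 calls at day 3 and 1 in the pre-meiotic table, 2 past 2-fold at day 3 and 3 in pachytene, and 22, 29 and 2 members apart between successive materials. Without the 10 highest other rows the share of FPKM was 4.89% in the second day 3 column, 2.59% and 2.62% in the pre-meiotic table and 0.677% and 0.691% in leptotene/zygotene. With rows of status OK only it was 2.44% in the first pre-meiotic column and 0.593% and 0.587% in leptotene/zygotene. Each value rests on 1 library, so none of these settings measures the spread between animals. No paired analysis was possible because each condition is 1 library and the conditions carry no replicate number.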
